A study of Mus musculus with 6 samples.

Results

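The mouse mitochondrial (mt) genome carries 37 genes, which were described here in ribosome footprint libraries of ID8 cells. The members are all rows of the count table whose Ensembl identifier maps in GENCODE M21 to a symbol starting with mt-, 37 of 53465 rows, and they comprise 13 protein-coding genes, 2 ribosomal RNAs (rRNAs) and 22 transfer RNAs (tRNAs). Ribosome profiling counts short RNA fragments that ribosomes shield from nuclease, so a gene's count reflects both its RNA level and its occupancy by ribosomes. ID8 is a cancer line from mouse ovarian surface epithelium, and the study asked how translation differs when the RNA acetyltransferase NAT10 is targeted. There were 3 libraries labelled WT and 3 labelled KO. The series' design text names a control guide, sgNC, and a Nat10 guide, sgNat10, and WT was taken here as the first and KO as the second, a match the sample labels do not state. All 6 came from cells given cycloheximide (100 µg/mL for 2 minutes), and the labels do not say whether replicates are separate cultures or whether the KO cells are 1 clone, and the p-values speak only for the spread among these 6, which may be technical.

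Mitochondria keep a small circular genome, both strands of which are transcribed into long precursors, and the tRNAs lying between the other genes mark where these are cut. The 13 proteins are core subunits of the respiratory chain and of ATP synthase, the machinery that makes most ATP from oxygen use, and a dedicated mitochondrial ribosome built on the 12S and 16S rRNAs translates them. Cycloheximide holds cytosolic ribosomes and not mitochondrial ones. Fragments of the rRNAs and tRNAs are pieces of the RNAs themselves and not of translated messages, and the labels' protocols state that reads matching rRNA and tRNA sequences were removed before counting, without saying whether mitochondrial sequences were among them.

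Total counts were 1687466 to 2148715 in WT and 2234305 to 3126208 in KO. The most frequent count of a gene in a library above the lowest counts, its modal count, was 15, 21 and 39 in WT and 42, 46 and 60 in KO. Counts divided by it are called molecule equivalents below, and every KO divisor is above every WT divisor. On that scale the library totals were 112498, 102320 and 46442 in WT and 60506, 48572 and 52103 in KO. The higher total counts of KO thus do not mean greater depth in molecule equivalents. Nat10 itself had 168, 128 and 292 counts in WT and 315, 133 and 445 in KO (log2 fold change, KO minus WT, -0.07, 95% interval -1.09 to 0.94, edgeR quasi-likelihood adjusted p = 1), so that KO below names a label, and no fall of Nat10 was measured. All 8 epithelial and mesothelial markers of ID8 had counts, with a summed level of 5827 to 6275 CPM (counts scaled to library size with TMM factors) in WT and 4139 to 4780 in KO. Of the other markers, the 5 of leukocytes summed to at most 14.4 CPM in WT and 1.23 CPM in KO with Cd3e at 0, the 3 of endothelium to at most 1.54 CPM, and the 2 of fibroblasts to at most 5.41 CPM. The part of other cells or of the markers' difference in the results below was not tested.

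Short fragments of mt genes can also match stretches of mitochondrial DNA that were copied into nuclear chromosomes during evolution. The following starts of 3 coding sequences, each 60 bases and each set beside its nuclear copy (an annotated pseudogene), show how close such copies are in GRCm38, and the tRNAs for valine and aspartic acid are shown as the most and one of the least counted tRNAs. Capitals mark bases that differ between an mt gene and its copy, and all are written 5′ to 3′ on the strand of the mt gene.
mt-Co2 (chrM:7013-7072, plus strand): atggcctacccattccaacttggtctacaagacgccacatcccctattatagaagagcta
Gm28661 (chr1:24615506-24615565, minus strand): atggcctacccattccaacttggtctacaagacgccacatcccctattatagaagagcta
mt-Co1 (chrM:5328-5387, plus strand): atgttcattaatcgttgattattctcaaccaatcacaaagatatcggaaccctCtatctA
Gm13340 (chr2:22589588-22589647, minus strand): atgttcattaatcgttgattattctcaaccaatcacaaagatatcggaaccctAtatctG
mt-Cytb (chrM:14145-14204, plus strand): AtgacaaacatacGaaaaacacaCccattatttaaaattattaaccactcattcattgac
Gm11410 (chr4:80003989-80004048, plus strand): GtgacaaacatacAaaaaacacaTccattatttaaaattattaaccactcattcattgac
mt-Tv (chrM:1025-1093, plus strand): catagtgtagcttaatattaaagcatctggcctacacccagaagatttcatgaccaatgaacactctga
mt-Td (chrM:6942-7011, plus strand): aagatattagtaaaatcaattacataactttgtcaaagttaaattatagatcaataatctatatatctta
The start of mt-Co2 had 0 differences from its copy, that of mt-Co1 had 2 and that of mt-Cytb had 3. A fragment from the start of mt-Co2 could therefore not be placed in 1 genome location by its sequence. The longest run identical to the copy was 53 bases for mt-Co1 and 36 bases for mt-Cytb. Both runs were longer than any read kept for alignment. A fragment lying wholly within such a run could not be placed either.

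The mt genes held between 7.50% and 14.6% of all counts in a library, nearly all of it rRNA. Their share was 9.24%, 11.8% and 14.6% in WT replicates 1 to 3 and 11.4%, 10.8% and 7.50% in KO replicates 1 to 3. The highest share was in a WT library and the lowest in a KO library, but the groups overlapped. The means were 11.9% ± 2.65 in WT and 9.88% ± 2.09 in KO (SD, n = 3; exact two-sided permutation p = 0.4, and 20 assignments cannot give less than 0.1). The rRNAs made up 94.5% to 98.0% of the mt counts of a library, the proteins 1.88% to 5.32% and the tRNAs 0.122% to 0.237%. Wilson 95% intervals of these shares of a library were at most 0.103 percentage points wide. They take every count as independent. Fragments copied by PCR are not independent molecules, so the intervals are too narrow even for counting error. The range over the libraries was far wider for all mt genes, the rRNAs and the proteins. For the tRNAs the intervals of some libraries overlapped, such as 0.0132% to 0.0169% in WT replicate 1 and 0.0140% to 0.0173% in WT replicate 2. The tRNAs had only 8.38 to 16.8 molecule equivalents in a library. Libraries whose tRNA intervals did not overlap therefore need not differ beyond counting error.

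**Figure D1:**
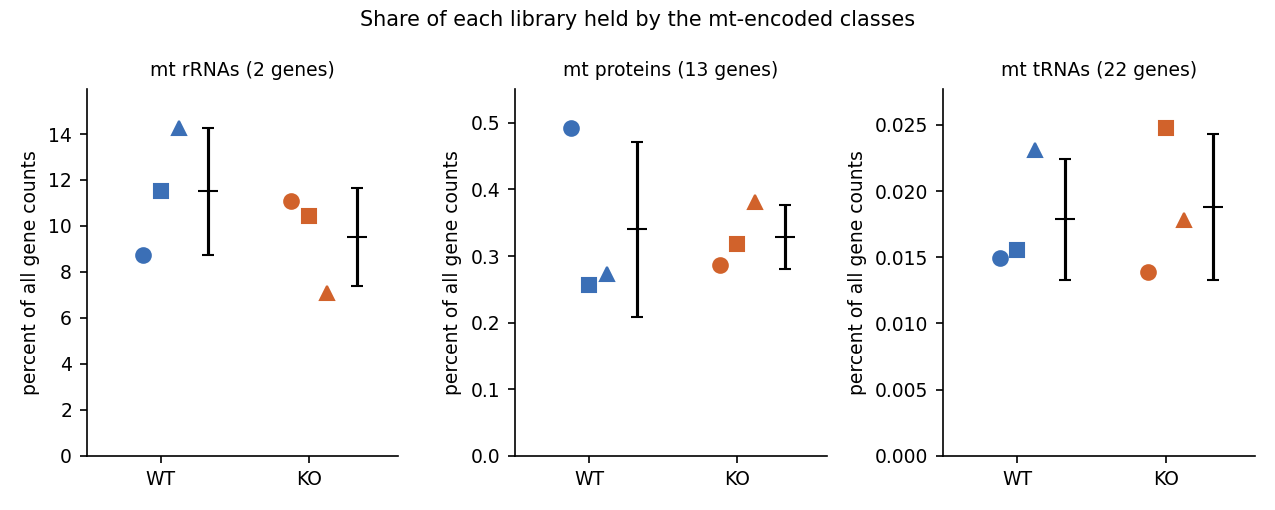
Percent of all gene counts held by the mt rRNAs, proteins and tRNAs in each library (circles, squares and triangles are replicates 1, 2 and 3, and bars are mean ± SD of 3 libraries), each panel with its own axis from 0. The WT and KO points overlap in every panel, with WT replicate 3 highest for rRNA at 14.2% and WT replicate 1 highest for proteins at 0.492%.

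The 2 rRNAs dominated the class. mt-Rnr2 (ENSMUSG00000064339, chrM:1094-2675, plus strand), the 16S rRNA of the large mitochondrial subunit, was counted 134111, 223460 and 234250 times in WT libraries, and 256848, 207893 and 201466 times in KO libraries. It ranked 1 or 2 among all genes in every library. Its level was 80742, 110559 and 134100 CPM in WT and 99214, 88138 and 61888 CPM in KO, lowest in KO replicate 3 and highest in WT replicate 3, and the groups overlapped. The log2 fold change was -0.38 (SE 0.17, n = 3 a group) with an unadjusted edgeR p of 0.0378 and an adjusted p of 0.692, so it was not called. mt-Rnr1 (ENSMUSG00000064337, chrM:70-1024, plus strand), the 12S rRNA of the small subunit, ranked 3 to 6. It had 8022, 11886 and 13644 CPM in WT and 9464, 10705 and 6303 CPM in KO (log2 fold change -0.34, SE 0.20, edgeR adjusted p = 0.964). WT replicate 3 was highest and KO replicate 3 lowest for mt-Rnr1 too, again with overlapping groups.

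Both rRNAs kept a narrow ratio to each other. mt-Rnr2 had 10.1, 9.30 and 9.83 counts per count of mt-Rnr1 in WT and 10.5, 8.23 and 9.82 in KO. Per base of length the ratio was 4.97 to 6.33, although both rRNAs stand once in each mitochondrial ribosome. The rRNA share of a library was 8.74%, 11.5% and 14.2% in WT and 11.1%, 10.4% and 7.10% in KO, with means of 11.5% ± 2.76 and 9.54% ± 2.13 (SD, n = 3; exact permutation p = 0.4). Without WT replicate 3 the log2 ratio of the mean shares, KO over WT, moved from -0.27 to -0.087, and without KO replicate 3 to -0.097. Windows of 28 bases that also occur exactly in a nuclear chromosome made up 0.215% of mt-Rnr1 and 14.9% of mt-Rnr2.

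The 13 protein-coding genes together held only 0.492%, 0.256% and 0.273% of counts in WT and 0.287%, 0.317% and 0.380% in KO. The means were 0.340% ± 0.132 and 0.328% ± 0.0478 (SD, n = 3; exact permutation p = 1), and WT replicate 1 stood above the other 5 libraries. Leaving it out turned the log2 ratio of the shares from -0.053 to 0.31, and leaving out KO replicate 1 turned it to 0.036. The rRNA counts per protein count were 17.8, 44.9 and 52.2 in WT and 38.6, 32.9 and 18.7 in KO (log2 difference -0.27, exact permutation p = 0.6), so the ratio of both classes varied within a group as widely as between groups. That difference turned to 0.024 without WT replicate 3 and to 0.039 without KO replicate 3.

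Counts were spread very unevenly over the 13 genes, along a pattern of gene order. A run of 6 neighbouring genes from mt-Co2 to mt-Nd4l had 189 counts in all over the 6 libraries, 0.420% of the class, while the other 7 genes had 44832. In these 6 genes at least 99.1% of windows of 28 bases also occurred exactly in a nuclear chromosome, against 0 to 66.7% in the other 7. Such windows made up 42.7% of the whole mt genome of 16299 bases. With at most 1 mismatch allowed, the share was 55.1%. On chromosome 1, 7 annotated pseudogenes between 24611535 and 24616197 matched chrM from 6390 to 11042 at 99.7% to 100% identity. Those 7 pseudogenes had only 10 to 35 counts in a library, and the 16 pseudogenes found to match chrM (blastn, at least 90% identity over 100 bases) had 18 to 40. Neither the run nor its copies thus held many counts. The sources used here do not give how reads with several matches were treated, and the part of that in these low counts was not tested.

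**Figure D2:**
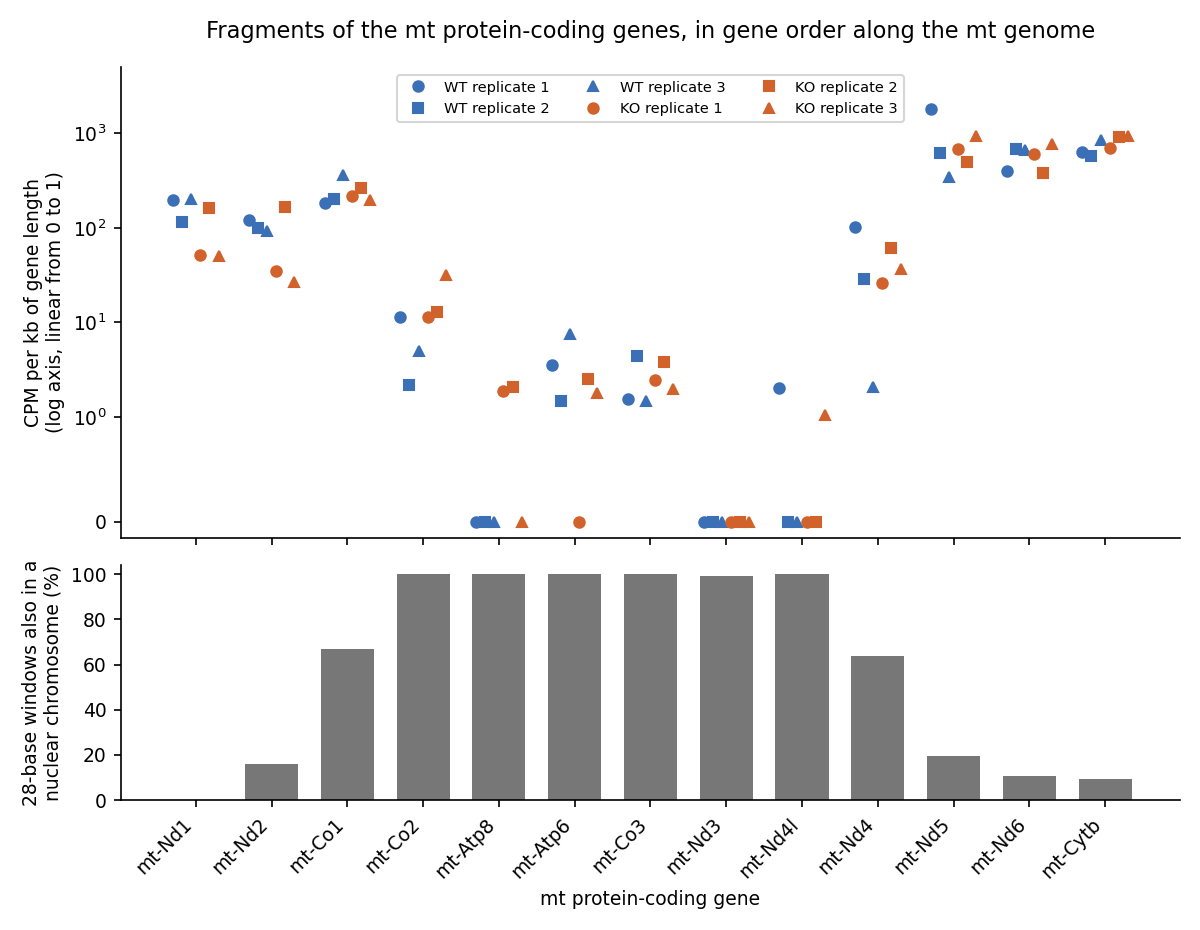
Upper panel, CPM per kb of gene length for each of the 13 mt protein-coding genes in each library, on a log axis that is linear from 0 to 1. Lower panel, the percent of each gene's windows of 28 bases that also occur exactly in a nuclear chromosome, where the 6 genes from mt-Co2 to mt-Nd4l stand at 99.1% to 100% and have the lowest mean levels.

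Complex I, the NADH dehydrogenase that takes electrons into the chain, has 7 mt-encoded subunits, and 1 of them, mt-Nd5, had the most counts of the mt protein genes over the 6 libraries together, though mt-Cytb had more in WT replicate 3 and KO replicate 2. mt-Nd5 (ENSMUSG00000064367, chrM:11742-13565, plus strand), a membrane subunit that takes part in proton pumping, was counted 5487, 2304 and 1115 times in WT libraries, and 3200, 2169 and 5569 times in KO libraries. Its level was 3303, 1140 and 638 CPM in WT and 1236, 920 and 1711 CPM in KO. WT held both the highest and the lowest library, a 5.17-fold range, and the KO libraries lay between them. The log2 fold change was -0.39 (SE 0.53, edgeR adjusted p = 1) and rested on WT replicate 1, without which it was 0.54. mt-Nd5 supplied 66.1%, 41.8% and 22.6% of the mt protein counts in WT and 43.9%, 30.6% and 46.8% in KO.

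mt-Nd6 (ENSMUSG00000064368, chrM:13552-14070) is the only mt protein encoded on the minus strand and also belongs to complex I. It had 209, 355 and 343 CPM in WT and 315, 197 and 399 CPM in KO, with thoroughly overlapping groups and a log2 fold change of 0.0041 (SE 0.31). It shares 14 bases with the end of mt-Nd5, and since the strand setting of the counting is not given, fragments of the opposite strand cannot be told apart from its own.

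mt-Nd1 (ENSMUSG00000064341, chrM:2751-3707, plus strand), a subunit near the quinone site, has no window in common with a nuclear chromosome. In CPM it lay below mt-Nd5, mt-Cytb, mt-Co1 and mt-Nd6 in every library. It had 191, 111 and 193 CPM in WT and 49.8, 157 and 47.9 CPM in KO, so that KO replicates 1 and 3 lay below every WT library and KO replicate 2 among them. The log2 fold change was -0.96 (SE 0.49, 95% interval -1.997 to 0.084, edgeR adjusted p = 0.858), the most negative estimate among the tested mt proteins, and was not called. mt-Nd2 (chrM:3914-4951), another membrane subunit, showed the same order of KO libraries, with 126, 103 and 96.2 CPM in WT and 35.9, 172 and 27.6 CPM in KO (log2 fold change -0.47, SE 0.61, edgeR adjusted p = 1). Leaving out KO replicate 2 brought mt-Nd1 to -1.75 and mt-Nd2 to -1.76, with edgeR adjusted p of 0.263 and 0.404. In KO replicates 1 and 3 these levels rest on low coverage, 3.07 and 2.6 molecule equivalents for mt-Nd1 and 2.21 and 1.5 for mt-Nd2. Over the 6 libraries mt-Nd1 averaged 9.03 and mt-Nd2 6.78.

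mt-Nd4 (chrM:10167-11544, plus strand), a further membrane subunit, ran from 142, 39.6 and 2.86 CPM in WT to 36.3, 83.5 and 50.4 CPM in KO, a 49.6-fold range that lies wholly within WT. Its first part belongs to the region copied on chromosome 1, and 63.7% of its windows occurred in a nuclear chromosome. The small subunits mt-Nd3 and mt-Nd4l were at or near 0. mt-Nd3 had 0 counts in every library. Were counts independent, this would allow up to 3 counts or 0.922 to 1.81 CPM in a library. PCR copies are not independent, and 1 molecule equivalent was 15 to 60 counts, so the true limit is higher. Besides, 99.1% of the windows of mt-Nd3 also occurred in a nuclear chromosome, and the part of that was not tested. mt-Nd4l had 1 count in WT replicate 1, 1 in KO replicate 3 and 0 in the other 4.

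Complex III, which passes electrons from quinone to cytochrome c, has a single mt-encoded subunit. mt-Cytb (ENSMUSG00000064370, chrM:14145-15288, plus strand), cytochrome b, was the most even of the 13 genes, with a 1.66-fold range over the 6 libraries. It had 730, 656 and 985 CPM in WT and 797, 1055 and 1087 CPM in KO. WT replicate 3 lay among the KO libraries, so the groups overlapped. The log2 fold change was 0.31 (SE 0.21, 95% interval -0.13 to 0.75, edgeR adjusted p = 1) and was positive in all 16 alternative fits, from 0.19 to 0.50, none of them called.

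Complex IV, cytochrome c oxidase, takes its 3 core subunits from the mt genome, and only mt-Co1 was well counted. mt-Co1 (ENSMUSG00000064351, chrM:5328-6872, plus strand), the heme- and copper-bearing subunit, had 284, 315 and 560 CPM in WT and 334, 409 and 305 CPM in KO (log2 fold change -0.15, SE 0.28, edgeR adjusted p = 1). WT replicate 3 stood above the rest, and without it the estimate was 0.22. mt-Co2 (chrM:7013-7696), the subunit that receives electrons from cytochrome c, had 13, 3 and 6 counts in WT and 20, 21 and 71 in KO, which is under 1 molecule equivalent in 5 of the 6 libraries. Its log2 fold change of 1.58 therefore came with an SE of 2.25. mt-Co3 had 2 to 7 counts in a library.

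ATP synthase has 2 mt-encoded subunits of its membrane part, and both lie in the copied region. mt-Atp6, which forms the proton channel, had 4, 2 and 9 counts in WT and 0, 4 and 4 in KO. mt-Atp8, a small subunit beside it, had 0 in every WT library and 1, 1 and 0 in KO. The genes of this pair overlap by 43 bases, and those of mt-Nd4l and mt-Nd4 by 7.

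Set per length, mt-Nd5 and mt-Cytb had the highest mean levels over the 6 libraries, 818 and 774 CPM per kb, followed by mt-Nd6 at 584 and mt-Co1 at 238 CPM per kb. The mean of mt-Nd5 rests on WT replicate 1 (1811 CPM per kb), and mt-Cytb was above mt-Nd5 in WT replicate 3 and in all 3 KO libraries. In WT replicate 2 mt-Nd6 (684 CPM per kb) was above both. Counted instead per 1000 windows that no nuclear chromosome holds, the level of mt-Co1 rose to 729 CPM, beside 1032 for mt-Nd5, 873 for mt-Cytb and 689 for mt-Nd6. On that scale mt-Nd1, mt-Nd2 and mt-Nd4 remained apart at 134, 110 and 121 CPM. That scale leaves shared windows out of the divisor only, and any counts from them stay in a gene's level. mt-Nd1, with no shared window, lay below mt-Co1, with 66.7%. The part of shared windows in these levels was not tested. The 4 leading genes supplied 85.8% to 95.9% of the mt protein counts in each library.

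**Figure D3:**
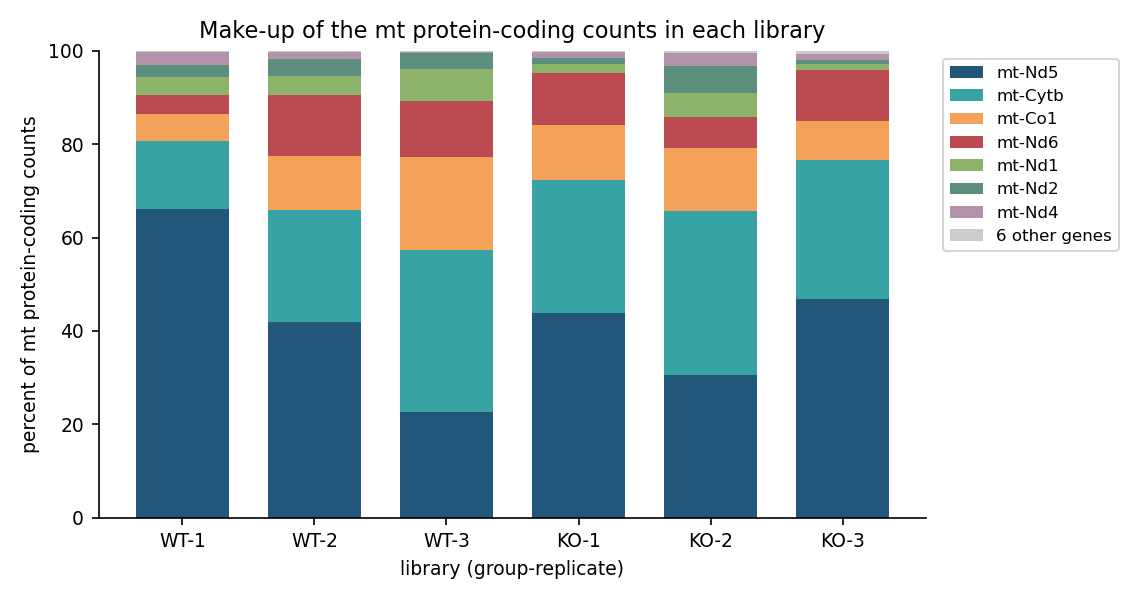
Percent of the mt protein-coding counts of each library that came from each gene, stacked to 100%. mt-Nd5 fills 66.1% of WT replicate 1 and 22.6% of WT replicate 3, while the 6 genes with fewest counts are barely visible.

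The 22 tRNAs, which read the codons of the 13 messages, held 0.0149%, 0.0155% and 0.0231% of counts in WT and 0.0139%, 0.0248% and 0.0178% in KO. The means were 0.0179% ± 0.00457 and 0.0188% ± 0.00552 (SD, n = 3; exact permutation p = 0.8). mt-Tv, the valine tRNA printed above, lies between both rRNA genes and made up 65.0% of the class. It had 91.5, 92.0 and 114 CPM in WT and 85.4, 171 and 135 CPM in KO (log2 fold change 0.40, SE 0.40, edgeR adjusted p = 1). mt-Tm, the methionine tRNA, had 19.9, 54.9 and 60.1 CPM in WT and 25.9, 41.5 and 12.6 CPM in KO (-0.75, SE 0.89). mt-Tq, for glutamine, had 17, 1 and 0 counts in WT and 0, 48 and 67 in KO (SE 2.64). None of these 3 tRNAs separated the groups.

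Another 4 tRNAs reached at least 10 counts in a library without being testable. mt-Tf, the phenylalanine tRNA at the start of the mt genome, had 22, 7 and 37 counts in WT and 0, 0 and 1 in KO. All WT values thus exceeded all KO values, but they were under 2 molecule equivalents in each library. mt-Ts2, a serine tRNA, had 72 of its counts in WT replicate 3 and at most 4 elsewhere. mt-Tp, for proline, had 49 counts in KO replicate 1 and 28 in WT replicate 2, and mt-Ta, for alanine, 23 in WT replicate 1, with at most 2 in any other library. Each of these peaks in a single library was under 2 molecule equivalents. Of the rest, 7 tRNAs had at most 9 counts in a library and 8, mt-Td among them, had 0 in all. All windows of mt-Td also occurred in a nuclear chromosome. The 9 tRNAs of which that was true had 4 counts in all, and the 13 others had 2462. Most of the latter were of mt-Tv (1602) and mt-Tm (455), and some of the 13 were also near 0. Over the 6 libraries mt-Tl1, with no exactly shared window of 28 bases, had 1 count. mt-Ti, with 4.76% of windows shared exactly, had 7, and mt-Tl2, with 15.9%, had 9. With at most 1 mismatch allowed, the shared windows were 27.1% of mt-Tl1, 64.3% of mt-Ti and 31.8% of mt-Tl2. The part of shared windows in the tRNA counts was not tested.

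Of the 37 members 28 had any count and 13 passed the filter on low counts: both rRNAs, 8 proteins and 3 tRNAs. None of these 13 was called between KO and WT (edgeR quasi-likelihood, Benjamini-Hochberg adjusted p under 0.05 over 8200 genes), where 33 genes, 0.402% of those tested, were (0.183% higher and 0.22% lower in KO). DESeq2 and limma-voom also called 0 of the 13, with 2.88% and 1.13% of all genes called. At an unadjusted p under 0.05 edgeR had 1 of 13, mt-Rnr2, against 6.49% of all genes. In none of the 13 did every WT library lie on one side of every KO library, which held for 14.9% of all tested genes. Over the 8 tested proteins the median log2 fold change was -0.13, with 3 positive and 5 negative, beside -0.016 over all tested genes. That median was 0.027 without WT replicate 1. Only 6 members, the rRNAs with mt-Nd5, mt-Cytb, mt-Co1 and mt-Nd6, averaged at least 10 molecule equivalents. For mt-Cytb, mt-Co1, mt-Nd6 and the rRNAs the 95% intervals, not adjusted for the number of genes, lay between -0.76 and 0.75 on the log2 scale. That of mt-Nd5 was wider, from -1.62 to 0.83. The intervals use a spread that edgeR estimates partly from other genes. Libraries of the same group were little more alike than libraries of different groups. Correlations of log CPM over the tested genes were 0.57 to 0.705 within groups and 0.54 to 0.63 between them. How large a change these libraries could have shown was not tested.

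**Figure D4:**
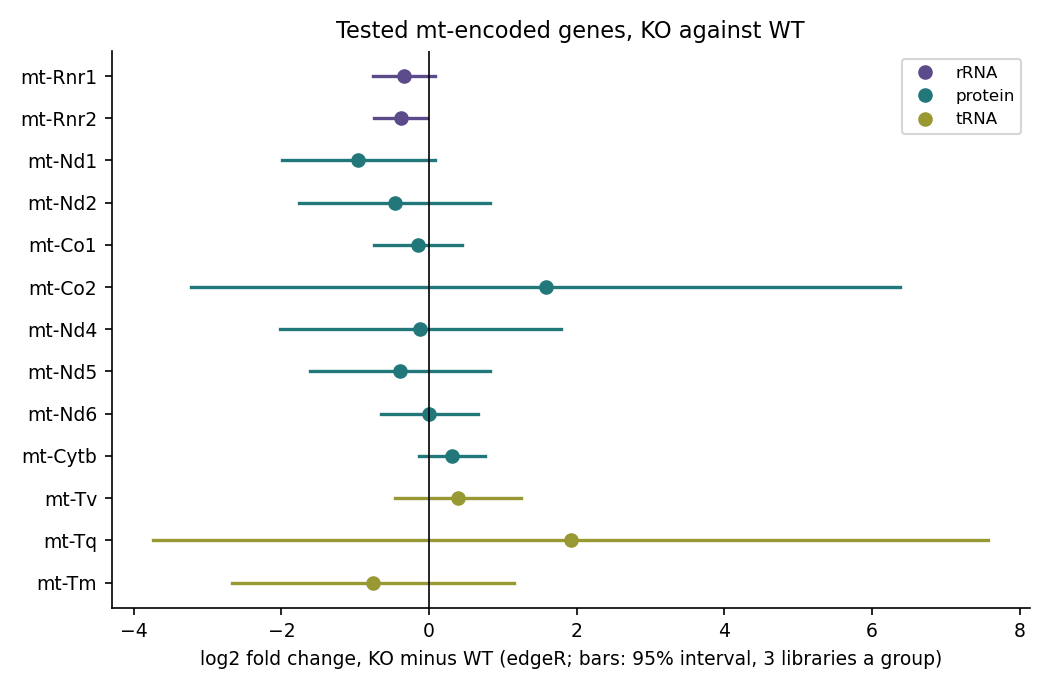
Log2 fold change, KO minus WT, with its 95% interval from edgeR for the 13 tested mt-encoded genes, 3 libraries a group. Points lie from -0.96 for mt-Nd1 to 1.92 for mt-Tq; all intervals but that of mt-Rnr2, which ends just below 0, include 0.

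Expression of the mt genome needs many nuclear-encoded proteins, which are made on cytosolic ribosomes and imported. In 5 lists of them, 159 of 184 genes were tested and 0 were called by edgeR, with 2 at an unadjusted p under 0.05, both lower in KO. Groups did not overlap for 8.18% of the 159, against 14.9% of all tested genes. Most of these genes were thinly covered, with a median of 2.24 molecule equivalents. Among mitoribosomal proteins 77 of 83 were tested, 38 with positive and 39 with negative estimates (median -0.0051). Ptcd3, a small-subunit protein that also stands in the RNA processing list, had 184, 206 and 127 CPM in WT and 89.2, 42.0 and 22.7 CPM in KO, so that every KO library lay below every WT library. Its counts were 305, 417 and 221 in WT, beside modal counts of 15, 21 and 39. In KO they were 231, 99 and 74, beside modal counts of 42, 46 and 60, so its KO levels rest on low coverage. Its log2 fold change was -1.75 (SE 0.50, edgeR adjusted p = 0.286). DESeq2 (adjusted p = 0.0136), limma-voom (0.013) and edgeR with no count filter (0.0298) called it. These fits called 2.88%, 1.13% and 0.711% of all genes. The mitoribosomal proteins Mrps27 and Mrpl44 had estimates of -1.87 (SE 0.91) and -2.70 (SE 1.57).

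Translation factors had 12 tested members, 6 positive and 6 negative (median -0.029), and Tufm had the smallest p among them. Tufm, the elongation factor that brings tRNAs to the mitochondrial ribosome, had 107, 113 and 105 CPM in WT and 27.0, 32.2 and 19.4 CPM in KO, with no overlap. Its log2 fold change was -2.05 (SE 0.52, edgeR adjusted p = 0.163). DESeq2 called it (adjusted p = 0.000858), along with 2.88% of all genes, and limma-voom did not call it. In KO its counts of 70, 76 and 63 were each under 2 molecule equivalents. The GTPases Guf1 and Gfm1 had estimates of 1.40 (SE 1.30) and -0.52 (SE 0.54).

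Transcription and nucleoid proteins had 9 of 13 tested members positive (median 0.56), none with an unadjusted p under 0.05, at a median coverage of 1.21 molecule equivalents. Tfam, which packs and transcribes mt DNA, stood at -0.64 (SE 0.85), the polymerase subunit Polg at 1.83 (SE 1.67) and the nuclease Mgme1 at 1.48 (SE 2.04). In the RNA processing, stability and modification list 21 of 31 were positive (median 0.13). Its named members beside Ptcd3 were the methyltransferase Nsun2 (-0.36, SE 0.30) and the helicase Supv3l1 (-3.56, SE 2.54). In the list of membrane insertion, proteases and assembly 12 of 28 were positive (median -0.27), with the prohibitin Phb2 at -0.80 (SE 0.45), the inner-membrane protease Yme1l1 at -0.41 (SE 0.24) and the complex IV assembly factor Cox20 at -1.20 (SE 0.98).

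**Figure D5:**
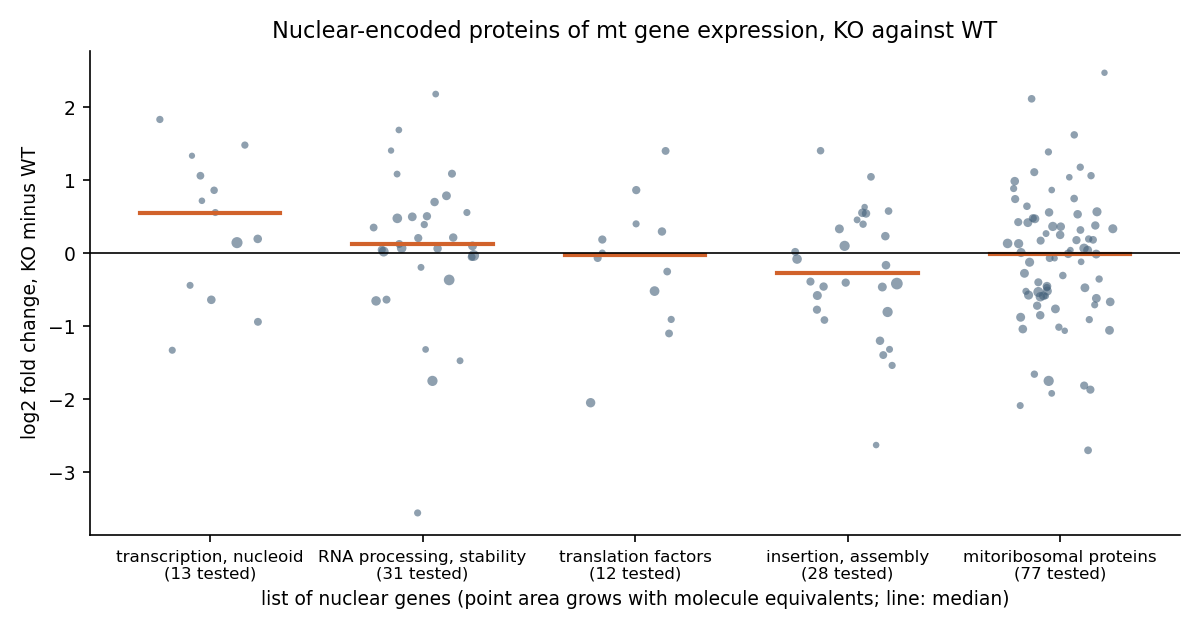
Log2 fold change, KO minus WT, of each tested gene in 5 lists of nuclear-encoded proteins of mt gene expression, with point area growing with molecule equivalents and a line at each median. Medians run from -0.27 to 0.56, and no gene was called by edgeR.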

How the data were processed

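Ribosome footprint libraries of 6 ID8 samples were grouped by title. Per the labels' protocols, trimmed reads of 25 to 34 bases went through a Bowtie filter against rRNA and tRNA sequences, and HISAT2 and Bowtie then aligned what was left (build GRCm38). The tools featureCounts and DESeq2 appear by name in the submitters' processing notes. Not given in the sources used here: annotation, strand, treatment of multiple matches. The authors deposited raw counts per Ensembl gene, of which 53360 of 53465 identifiers matched GENCODE M21.

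From the deposited counts, edgeR 4.0.16 (R 4.3.3; TMM, filterByExpr, robust quasi-likelihood test) tested 8200 genes. CPM uses TMM-adjusted totals. Shares used exact permutation tests. Modal counts are peaks of a kernel density of gene counts (bandwidth 3, searched from 8 to 150). chrM windows were searched exactly on both strands of 21 nuclear chromosomes, and GENCODE transcripts were matched to chrM with blastn 2.17.0. Alternatives were DESeq2 1.42.0, limma-voom 3.58.1, other normalizations and filters, molecule equivalents, a replicate block and leaving out libraries.

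The members and lists were chosen with earlier results of these data known. Named were all mt proteins and rRNAs, tRNAs with at least 10 counts in a library, and in each list the called members and the 3 with the smallest p; mt-Td was chosen after its values were seen. In the lists, Mtrfr and Mtu1 had no match by symbol. Same-numbered libraries did not deviate together (correlations -0.017, -0.0026 and -0.0067).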

Additional observations from a re-analysis of the deposited data

How the results depend on the processing

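No mt-encoded gene was called in the main fit or in any of its 16 alternatives, which were DESeq2, limma-voom, 3 other normalizations, 2 other count filters, protein-coding genes alone, molecule equivalents, the replicate block and each library left out. Of the 13 tested members, mt-Co1, mt-Nd4, mt-Nd5 and mt-Nd6 changed sign in some alternative. Over all genes the count of calls was 33 of 8200, and it was 91 of 12794 with no count filter, 108 of 968 on molecule equivalents (where 6 mt-encoded genes were tested), 234 by DESeq2, 93 by limma-voom and 6 to 29 with single libraries left out (6 without WT replicate 2 and without WT replicate 3). Library totals in place of TMM moved the median of all genes from -0.016 to 0.094. Ptcd3 was the 1 call in the RNA processing list and among mitoribosomal proteins with no count filter, by DESeq2 and by limma-voom, and Tufm the 1 call among translation factors by DESeq2; the cause was not tested. With the replicate number as a block (replicate block), the log2 ratio of shares was -0.26 for all mt genes, -0.27 for rRNA, 0.0030 for proteins and 0.061 for tRNAs, 0 members were called, and the median of mt proteins was -0.048; the labels do not say that a number marks a shared day. With libraries left out singly, the log2 ratio ranged from -0.41 to -0.090 for all mt genes, -0.43 to -0.087 for rRNA, -0.22 to 0.31 for proteins and -0.18 to 0.30 for tRNAs. It ranged from -0.75 to 0.039 for rRNA per protein count, and the median of mt proteins from -0.31 to 0.027. The sign for proteins, tRNAs and that ratio thus depended on single libraries. Windows of 25, 28 and 34 bases gave 44.6%, 42.7% and 39.8% of chrM shared with a nuclear chromosome.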
